A study of Mus musculus with 24 samples.

Results

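The genes described here are 33 markers of monocytes, macrophages and dendritic cells, followed across 24 mouse bone marrow RNA-seq libraries that carried a wild-type (WT) or a mutant Srcap gene. SRCAP is a chromatin remodelling ATPase that exchanges histone H2A for the variant H2A.Z. The members were taken by symbol from a named list, of 55414 genes counted in the files and 52081 with a symbol. Of them, 11 mark monocytes, 12 macrophages, 4 plasmacytoid dendritic cells and 5 conventional dendritic cells, and Irf8 is a transcription factor that monocytes and dendritic cells share. All 33 passed the filter on low counts in each fit. The mice were C57BL6/J, and each group had 2 libraries of 1 genotype. Hematopoietic stem and progenitor cells (HSPCs) came from untreated mice (called germline in the labels), from mice 12 hours after intraperitoneal doxorubicin, a DNA-damaging drug, from mice 2 weeks after transplantation, and from mice 20 weeks after competitive transplantation. The series design text describes the 20-week cells as donor test cells, sorted by their CD45.2 antigen. B cells and T cells of the bone marrow were collected 2 weeks after transplantation. The labels call the mutant groups only Srcap mutant, without naming the allele, and the file headers mark the untreated, doxorubicin and 20-week mutants as heterozygous. Neither the recipients of the transplants nor the age of the mice is described in the sources used here.

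Monocytes arise in the marrow from progenitors that depend on IRF8, leave it through the chemokine receptor CCR2, and turn into macrophages or patrolling cells. Marrow macrophages engulf the nuclei shed by red cell precursors and dying cells, bind stem cells and erythroblasts through VCAM1, and are a main source of the complement protein C1q. Plasmacytoid dendritic cells sense nucleic acids through the endosomal receptors TLR7 and TLR9 and release type I interferon. Conventional dendritic cells of type 1 depend on BATF3 and IRF8 and take up dead cells through CLEC9A. The stem and progenitor gate is meant to leave mature cells of all these kinds out, but low levels of their transcripts can be present in progenitors themselves.

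Library totals ranged from 26369992 to 78432483 counted read pairs, and levels are given as CPM, the count of a gene per 1000000 counts of its library. The labels do not say whether the 2 libraries of a group came from separate animals, so p-values measure the spread between these libraries, which may be technical. Srcap itself was at 6.09 to 20.3 CPM in WT and 2.83 to 20.0 CPM in mutant libraries, and in untreated HSPCs it was higher in the mutants (13.7 and 11.8 CPM) than in WT (8.71 and 8.48 CPM). Whether the counted exons lie in the altered stretch of the gene is not stated, so these levels do not check the genotype labels. The file headers put the untreated and doxorubicin libraries in 1 directory and the 2-week and 20-week libraries in separate ones. A transplant condition and its directory can therefore not be told apart. The X-linked transcript Xist, made in female cells, was at 320.2 to 1537 CPM in the 12 libraries of 2 weeks and at most 0.484 CPM in all others. For every member, the change from untreated to 2-week HSPCs cannot be told apart from this difference either. The first WT untreated library stood apart from the other 3 untreated ones: its 19 neutrophil markers summed to 25698 CPM, against 531 to 629 CPM in the mutants, and several monocyte genes were at their highest untreated level in it. For the members whose change it moves most, values without it are given too. In the libraries labelled T cells, the 10 T cell markers summed to only 13.5 to 20.0 CPM (Cd3e 0.0883 to 1.56 CPM), while the neutrophil markers summed to 150740 to 171299 CPM. They are called T-labelled below. The B cell libraries held their 12 markers at 17218 to 21508 CPM and the HSPC libraries 10 stem and progenitor markers at 1143 to 3811 CPM. Adjusted p-values are from edgeR's quasi-likelihood test with the Benjamini-Hochberg adjustment over all genes tested, a gene is called at an adjusted p under 0.05, and changes are log2 values ± SE.

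The members differed widely in level. In TPM, the transcript level per unit of length computed from the counts and the exon lengths in the files, the group mean of Lyz2, the lysozyme of monocytes, macrophages and granulocytes, ran from 259 in 20-week HSPCs to 29940.00 in the T-labelled libraries. Among the higher HSPC means were those of Ctss, a lysosomal cysteine protease, at 139 to 455 TPM, Bst2, an interferon-induced surface protein, at 131 to 250.2 TPM, and Mpeg1, the pore-forming protein perforin-2, at 61.4 to 159.8 TPM. At the other end, mean TPM in untreated HSPCs was 0.241 for Marco and 0.0128 for Cd300e, 2 surface receptors of mature phagocytes. Together the members took 897 to 1876 CPM in 15 of the 16 HSPC libraries and 3915 CPM in the first WT untreated library, where Lyz2 alone made 66.0% of their sum. The B cell libraries held 1768 to 3321 CPM and the T-labelled ones 21486 to 24596 CPM, of which Lyz2 made 76.0 to 78.7%. In these bulk libraries, fewer cells of a type and less RNA per cell cannot be told apart.

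**Figure D1:**
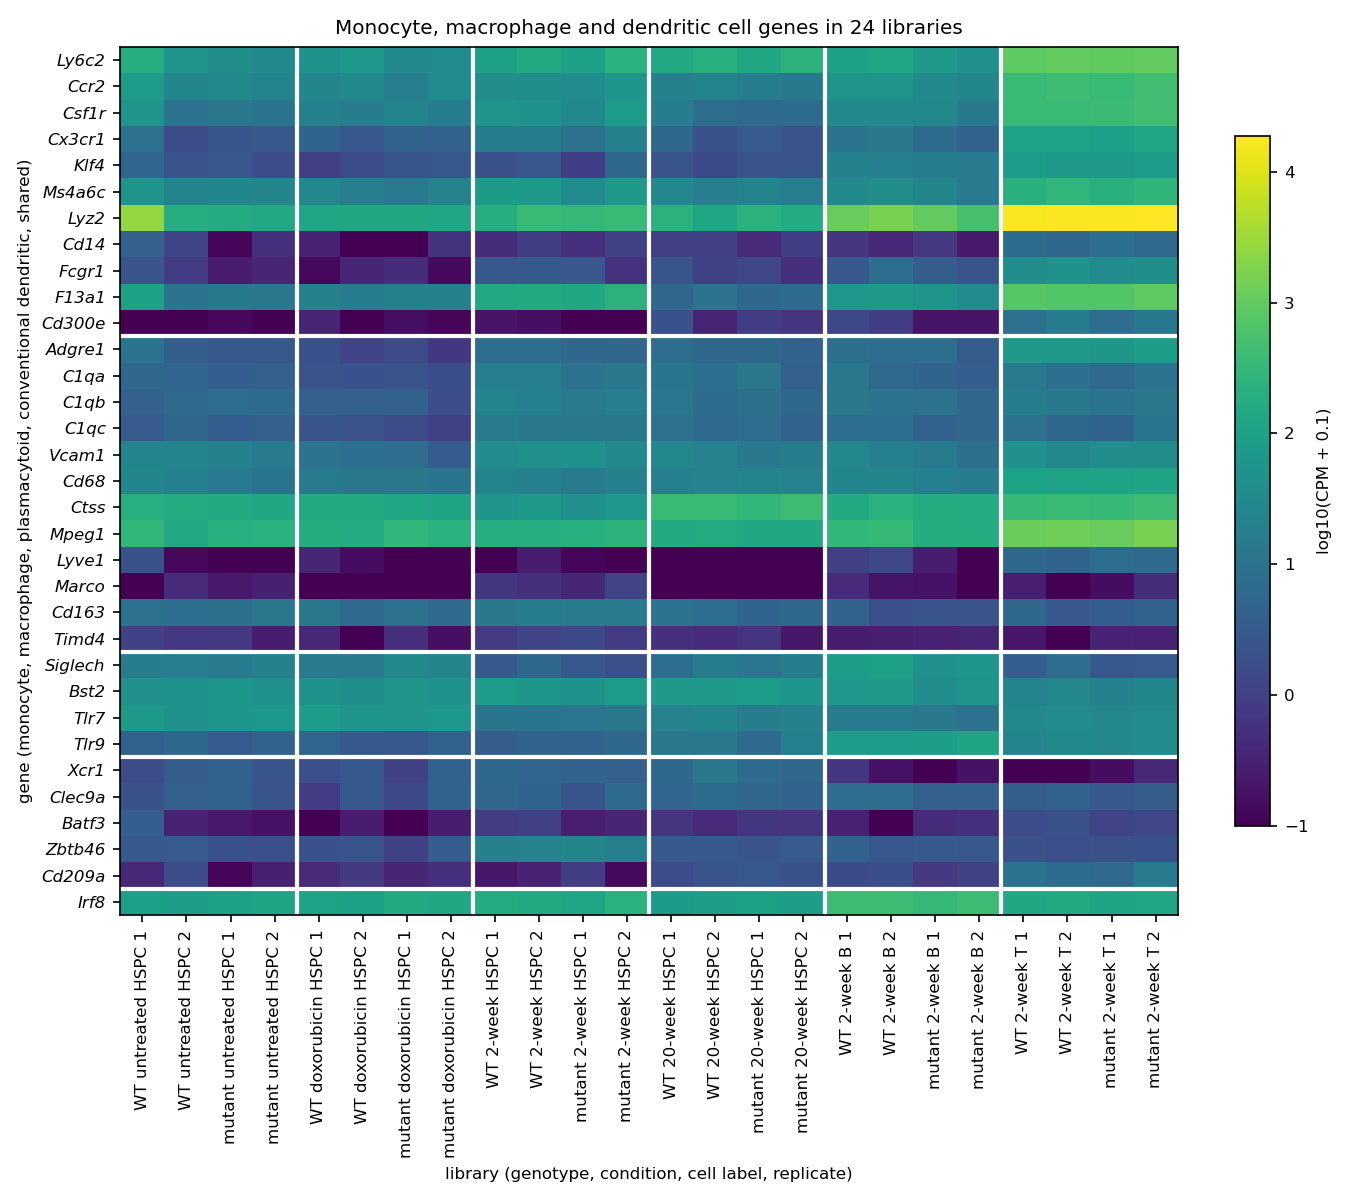
Heat map of the 33 members (rows, ordered by cell type) in the 24 libraries (columns, grouped by condition and genotype), coloured by log10(CPM + 0.1). The T-labelled libraries are bright across the monocyte rows, and the first WT untreated library is brighter in Lyz2 (2585 CPM) and F13a1 (102 CPM) than the other untreated ones.

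The genes of the C1q chains, C1qa, C1qb and C1qc, encode the 3 subunits of the protein that starts the classical complement pathway. They lie next to each other on the minus strand of chromosome 4 in GRCm39, with C1qb at chr4:136607440-136613498, C1qc at chr4:136617115-136620376 and C1qa at chr4:136623228-136626114, a span of 18.675 kb with gaps of 3616 and 2851 bp. Over the 16 HSPC libraries their log2-transformed CPM values moved together. Pearson's r was 0.904 for C1qa with C1qb, 0.956 for C1qa with C1qc and 0.962 for C1qb with C1qc. The same libraries gave 0.815 for C1qa with Vcam1 and 0.858 for C1qa with Adgre1, the gene of the macrophage antigen F4/80, and 0.933 for Csf1r with Cx3cr1. Ccr2 and Ly6c2, both used to mark classical monocytes, gave only 0.191 (0.048 without the first WT untreated library). Among dendritic genes, Xcr1 with Clec9a gave 0.849 and Siglech with Tlr7 0.826, whereas Siglech with Bst2 gave -0.507 and Siglech with Tlr9 -0.0091. These coefficients describe 16 libraries that share conditions and depth, and carry no test.

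Promoters are shown for 4 of the members that were called higher at 2 weeks after transplantation and that carry a core motif of PU.1, the ETS-family transcription factor of myeloid cells. Fcgr1, called higher there too, also carries it and is not shown, and of the windows of F13a1 a second one, which lacks it, is not shown either. RefSeq (GRCm38.p6) windows from 250 bases before to 50 after the start were matched by symbol for 26 of the 33 members, with 29 windows in all. The motif AGGAAGT, searched on both strands, was in 11 of the 29 windows (37.9%), against 9.35% of all 32851 windows. An ETS-IRF composite motif, which shares letters with the PU.1 core and can overlap it, was in 3 of 29 (2.72% of all windows), TTGCNNAA, a C/EBP sequence, in 2 of 29 (10.8%) and the E-box CANCTG in 20 of 29 (51.4%). A match is only a run of letters, and none of these windows was tested for binding. The 4 sequences below are the 250 bases before the start on the strand of the gene, 5′ to 3′, with the PU.1 core or its reverse complement in capitals. C1qb and C1qc hold it as ACTTCCT and F13a1 and Ms4a6c as AGGAAGT.
C1qb promoter, chr4:136886201-136886450, minus strand: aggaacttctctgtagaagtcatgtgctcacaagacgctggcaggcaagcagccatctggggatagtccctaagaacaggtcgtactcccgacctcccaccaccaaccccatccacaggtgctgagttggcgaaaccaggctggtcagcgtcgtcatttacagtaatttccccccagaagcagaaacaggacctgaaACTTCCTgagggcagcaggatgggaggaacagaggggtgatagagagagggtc
C1qc promoter, chr4:136892915-136893164, minus strand: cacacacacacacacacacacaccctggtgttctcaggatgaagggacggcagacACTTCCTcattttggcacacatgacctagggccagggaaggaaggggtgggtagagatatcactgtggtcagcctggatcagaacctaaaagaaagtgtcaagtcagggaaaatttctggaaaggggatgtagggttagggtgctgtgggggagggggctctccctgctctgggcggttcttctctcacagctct
F13a1 promoter, chr13:37049214-37049463, minus strand: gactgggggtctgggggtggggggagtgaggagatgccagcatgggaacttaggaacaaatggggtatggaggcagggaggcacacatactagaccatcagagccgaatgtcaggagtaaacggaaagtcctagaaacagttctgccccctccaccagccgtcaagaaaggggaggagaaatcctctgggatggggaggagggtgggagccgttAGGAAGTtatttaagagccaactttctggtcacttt
Ms4a6c promoter, chr19:11469118-11469367, plus strand: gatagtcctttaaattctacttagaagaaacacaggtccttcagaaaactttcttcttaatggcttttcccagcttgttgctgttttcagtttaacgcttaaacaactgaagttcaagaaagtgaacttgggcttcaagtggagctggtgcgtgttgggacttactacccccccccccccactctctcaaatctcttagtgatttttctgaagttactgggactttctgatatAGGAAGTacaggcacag

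Doxorubicin was compared with no treatment in HSPCs to ask how the members stood 12 hours after DNA damage. Vcam1, the adhesion molecule by which marrow macrophages and stroma hold progenitors, fell, and the macrophage genes Adgre1, C1qa and C1qc were lower in all 4 doxorubicin libraries than in all 4 untreated ones without passing the test. Vcam1 was at 24.4, 24.4, 21 and 15.4 CPM in the WT and mutant untreated libraries and at 9.91, 8.44, 7.4 and 3.36 CPM after doxorubicin. The groups did not overlap, and the second mutant doxorubicin library was the lowest. The change was -1.56 ± 0.23 (adjusted p = 0.0314), and Vcam1 was the only 1 of 33 members called, where 0.0154% of all genes tested were called. That call was lost without the first WT untreated (adjusted p = 0.131), the first mutant untreated or either WT doxorubicin library, with log2 changes over the 8 leave-outs of -1.91 to -1.33 and adjusted p of 0.000652 to 0.259. DESeq2 called 4 members lower, adding Adgre1, C1qa and C1qc. The share of all genes that DESeq2 called in this comparison is not given here, so its count has no background.

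The C1q genes were low in both groups, and none of the 3 passed the test. C1qa was at 5.4, 5.05, 3.73 and 4.05 CPM in untreated and 2.13, 1.99, 2.14 and 1.72 CPM in doxorubicin libraries, a change of -1.16 ± 0.27 (adjusted p = 0.249). C1qc went from 3.23, 5.39, 3.64 and 4.05 CPM to 2.4, 2.14, 1.51 and 0.936 CPM, a change of -1.27 ± 0.26 (adjusted p = 0.156). Both separated the groups completely, whereas C1qb overlapped by a narrow margin (4.01 to 8.01 against 1.66 to 4.23 CPM, -0.83 ± 0.26 (adjusted p = 0.657)). Adgre1 was at 10, 3.93, 2.68 and 2.78 CPM untreated and 2.02, 1.09, 1.56 and 0.619 CPM treated (-1.72 ± 0.35 (adjusted p = 0.154)), the untreated values led by the first WT library. Of all 33 members, 5 lay lower in every doxorubicin library than in every untreated one (Vcam1, Adgre1, C1qa, C1qc and Lyz2), where 1.85% of all genes tested did. The median change was -0.46 over the members, -1.21 over the 12 macrophage genes and 0.00086 over all genes tested. With edgeR 10 members, 7 of them macrophage genes, had an unadjusted p under 0.05, as did 1163 of all 19522 genes tested. Without the first WT untreated library Adgre1 changed by -1.31, C1qa by -1.13, C1qc by -1.43 and Lyz2 by -0.39, against -1.81 with it.

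Among 21 further macrophage genes none was called, 11 had an unadjusted p under 0.05, and their median was -0.76. The 10 markers of red cell precursors summed to 277 and 79.6 CPM in the untreated WT libraries, 23.8 and 19.7 CPM in the untreated mutants and 11.5 to 25.6 CPM in doxorubicin libraries, with a median change of -1.86 and none called. The untreated mutants were thus level with the doxorubicin libraries, and the WT libraries alone were higher. Their part in the macrophage values was not tested. No dendritic gene was called, with Siglech at 15.6 to 20.1 CPM before and 14.4 to 30.1 CPM after, Tlr7 at 49.5 to 68.6 and 55.5 to 76.8 CPM, and Irf8 at 85.5 to 122 and 105 to 167 CPM (0.38 ± 0.14 (adjusted p = 0.781)). Marco, a scavenger receptor, had 0, 12, 7 and 7 counts in the untreated libraries and none in the doxorubicin ones, and was not called (adjusted p = 0.673).

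**Figure D2:**
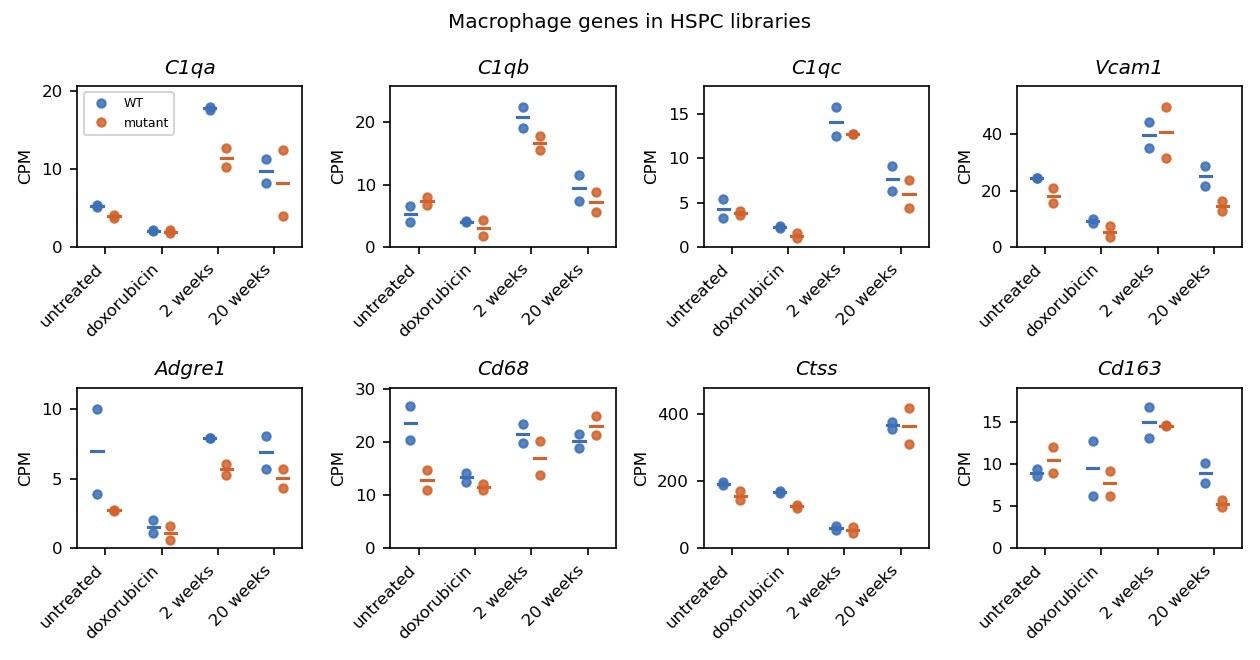
CPM of 8 macrophage members (1 panel each, linear axis from 0) in the 16 HSPC libraries by condition. WT points are blue, mutant points are orange, and a bar marks the mean of each genotype. C1qa, C1qb and C1qc are lowest after doxorubicin and highest at 2 weeks, whereas Ctss is lowest at 2 weeks (44.8 to 66.7 CPM) and highest at 20 weeks (309 to 416 CPM).

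At 2 weeks after transplantation the HSPC libraries held more of the 3 C1q transcripts and of 5 of the 11 monocyte genes than untreated ones, and less of 2 plasmacytoid genes. The summed level of the 11 monocyte genes was 635 to 1085 CPM at 2 weeks, against 3086 and 320.2 CPM for WT untreated libraries and 299 and 259.8 CPM for mutant ones. Of the 33 members 13 rose, where 21.2% of all genes tested did, and 3 fell, where 24.9% did. Those that rose were 5 of 11 monocyte genes, 5 of 12 macrophage genes, Bst2, Zbtb46 and Irf8, and those that fell were Ctss, Siglech and Tlr7. The median change was 0.74 over the members and -0.144 over all genes tested, and the latter was -0.025 with DESeq2's scaling. The comparison shares its untreated libraries with the doxorubicin and 20-week ones.

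The 3 C1q genes rose by similar amounts. C1qa was at 18, 17.6, 10.2 and 12.6 CPM in the WT and mutant 2-week libraries, against the untreated values given above, a change of 1.75 ± 0.27 (adjusted p = 2.91e-05). C1qb went from 4.01, 6.57, 8.01 and 6.75 CPM to 22.5, 19.1, 15.5 and 17.9 CPM (1.66 ± 0.27 (adjusted p = 4.53e-05)). C1qc reached 15.8, 12.5, 12.8 and 12.8 CPM (1.81 ± 0.26 (adjusted p = 1.13e-05)). Each 2-week library lay above each untreated one for all 3 genes, and none of these calls was lost in any leave-out. Vcam1 also separated the groups, at 35.1, 44.3, 49.7 and 31.7 CPM (1.02 ± 0.23 (adjusted p = 0.00141)). Cd163, the haptoglobin-hemoglobin receptor of macrophages, rose by less, from 9.39, 8.5, 8.85 and 12 CPM to 13.1, 16.7, 14.5 and 14.5 CPM (0.70 ± 0.23 (adjusted p = 0.0188)), and lost its call in 3 leave-outs, with adjusted p up to 0.0929. Adgre1 (0.71 ± 0.33 (adjusted p = 0.092)), Cd68 (0.22 ± 0.16 (adjusted p = 0.292)) and Mpeg1 (-0.01 ± 0.16 (adjusted p = 0.981)) were not called.

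Ctss went the other way. It stood at 197, 187, 169 and 144 CPM untreated and 55, 66.7, 44.8 and 63.8 CPM at 2 weeks. The groups were far apart, and the change was -1.51 ± 0.14 (adjusted p = 6.66e-08).

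Several monocyte genes rose, and the size of their change depended on the first WT untreated library. F13a1, coagulation factor XIII A, was at 102, 10.5, 13.3 and 12.6 CPM untreated, of which the first value is the library that stands apart, and at 152, 167, 138 and 238 CPM at 2 weeks. The change was 2.76 ± 0.62 (adjusted p = 0.00607), and 3.97 without that library, and with the compared groups alone its adjusted p was 0.051. Cx3cr1, the fractalkine receptor, went from 9.36, 1.57, 2.47 and 2.86 CPM to 16.6, 16.6, 9.24 and 19.3 CPM, 2.09 ± 0.49 (adjusted p = 0.00327) and 2.99 without it. Here the lowest 2-week library was level with the first WT untreated one. Csf1r, the receptor of CSF1 and IL-34, stood at 54.9, 9.93, 12.2 and 11.3 and then 52.5, 49.8, 33.7 and 80.7 CPM (1.55 ± 0.51 (adjusted p = 0.0346), 2.40 without it). Its call was lost in 5 of 8 leave-outs, with adjusted p up to 0.121, and with the compared groups alone (0.119), while without the first WT untreated library it was 4.97e-05. Ms4a6c (1.08 ± 0.30 (adjusted p = 0.0125)) and Fcgr1, the high-affinity IgG receptor (1.97 ± 0.78 (adjusted p = 0.0446)), were called with 37.1 to 74.9 and 0.455 to 3.06 CPM at 2 weeks, and lost the call in 2 and 6 leave-outs, with adjusted p up to 0.0601 and 0.325.

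Ly6c2 and Lyz2 depended on the same untreated library. Ly6c2, the antigen of classical monocytes, was at 189, 52.6, 40.7 and 31.1 CPM untreated and 96.9, 162, 102 and 233 CPM at 2 weeks, 1.25 ± 0.45 (adjusted p = 0.0524), and Lyz2 was at 2585, 193, 172 and 151 and 196, 371, 328 and 375 CPM, -0.50 ± 0.63 (adjusted p = 0.565). Without the first WT untreated library both were called, Lyz2 with a change of 0.93 and Ly6c2 with 1.84, and so were Adgre1 and Ccr2. Klf4, Cd14 and Cd300e were not called with or without it.

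The plasmacytoid genes did not move as a group. Siglech, a lectin that marks these cells and their precursors, was at 16.5, 17.7, 15.6 and 20.1 CPM untreated and 2.95, 5.79, 2.75 and 1.86 CPM at 2 weeks, a change of -2.35 ± 0.28 (adjusted p = 3.9e-06). Tlr7 went from 68.6, 49.5, 58.3 and 63.4 CPM to 10.9, 11.3, 11.5 and 13 CPM, -2.28 ± 0.16 (adjusted p = 2.64e-09). Neither pair of groups overlapped. Tlr7 lies on the X chromosome, and the X-linked transcript Xist, made in female cells, was at 320.2 to 1537 CPM in the 12 libraries of 2 weeks and at most 0.484 CPM in all the rest. Its part in the Tlr7 change was not tested. Bst2, which progenitors also express, rose slightly (0.49 ± 0.14 (adjusted p = 0.0073); without the second mutant 2-week library the adjusted p was 0.0611), and Tlr9 was at 3.39 to 5.56 and 3.43 to 5.99 CPM (0.17 ± 0.31 (adjusted p = 0.68)). Of 15 further plasmacytoid genes 9 fell and none rose, among them the transcription factors Runx2 (-1.40 ± 0.12) and Tcf4 (-0.96 ± 0.12) and the lymphoid antigen Ly6d (-2.19 ± 0.18).

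Zbtb46, a repressor that marks conventional dendritic cells, their precursors, endothelium and erythroid progenitors, had the largest change of the dendritic genes called. It stood at 3.02, 3.11, 2.0 and 1.82 CPM untreated and 19.4, 21.7, 25.3 and 18.7 CPM at 2 weeks, 3.23 ± 0.31 (adjusted p = 1.47e-07). The type 1 genes next to it did not pass the test, with Xcr1, the receptor of the chemokine XCL1, at 1.47 to 4.42 and 4.13 to 5.78 CPM (0.81 ± 0.41 (adjusted p = 0.121)) and Clec9a at 1.91 to 4.23 and 2.49 to 6.98 CPM (0.74 ± 0.45 (adjusted p = 0.196)). Irf8 was at 95.9, 85.5, 102 and 122 and then 173, 162, 127 and 228 CPM, 0.86 ± 0.14 (adjusted p = 8.45e-05). All 10 erythroid markers rose beside these genes, from a sum of 19.7 to 277 CPM to one of 477 to 1350 CPM, with a median change of 4.17. Of 19 neutrophil markers 4, the precursor genes Elane, Mpo, Prtn3 and Ctsg, rose and 2 fell, with sums of 6769 to 11250 CPM at 2 weeks, 25698 and 787 CPM for WT untreated libraries and 629 and 531 CPM for mutant ones. The 10 stem and progenitor markers all fell from 3050 to 3811 CPM to 1143 to 1541 CPM, and 7 of 8 mast cell and basophil markers rose. The part of these cells in the changes of the members was not tested.

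Other genes of the same cell types were mixed at 2 weeks. Of 21 further macrophage genes 10 rose, led by Apoe (1.95 ± 0.16), an apolipoprotein, and the iron exporter Slc40a1 (1.93 ± 0.23), and 2 fell, among them the transcription factor Maf (-1.64 ± 0.26). Further monocyte genes split 3 higher to 2 lower of 19, with Spn (0.87 ± 0.11), Cebpa (1.44 ± 0.18) and the granulocyte-monocyte progenitor gene Ms4a3 (5.25 ± 0.56) higher. Further conventional dendritic genes split 5 to 8 of 18 tested, with the growth factor receptor Flt3 (-1.67 ± 0.12) and the migration receptor Ccr7 (-1.51 ± 0.20) lower and the lectin Mgl2 (4.01 ± 0.46) higher. Of 8 growth factors and chemokines that act on these cells 7 could be tested and 3 fell: Csf2 (-6.29 ± 1.26), Cx3cl1 (-1.39 ± 0.37) and Flt3l (-0.73 ± 0.27). Of 17 interferon response genes 9 fell and none rose, among them Ifi44 (-2.30 ± 0.20), Oasl2 (-1.16 ± 0.14) and Rtp4 (-1.14 ± 0.13).

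At 20 weeks after competitive transplantation the C1q genes were called higher than in untreated HSPCs again, and so were Ctss, Bst2, Tlr9 and the conventional dendritic genes Xcr1 and Cd209a. Of these, C1qb and Bst2 had lower mean TPM at 20 weeks than untreated. Of the 33 members 11 rose, where 13.1% of all genes tested did, and 2 fell, where 10.6% did. The median change was 0.31 over the members and 0.02 over all genes tested. F13a1, which rose at 2 weeks, was at 5.38, 10, 5.81 and 7.02 CPM here and was not called (-1.57 ± 0.60 (adjusted p = 0.0974), and -0.36 without the first WT untreated library).

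C1qa was at 11.3, 8.13, 12.5 and 4.02 CPM in the WT and mutant 20-week libraries, 1.33 ± 0.26 (adjusted p = 0.00145). C1qc was at 9.1, 6.32, 7.59 and 4.36 CPM (1.09 ± 0.25 (adjusted p = 0.0041)) and C1qb at 11.6, 7.34, 8.82 and 5.6 CPM (0.75 ± 0.26 (adjusted p = 0.0445)). The second mutant library was the lowest of the 4 for each of the 3 genes and lay within the untreated range. The C1qb call was lost in 6 of 8 leave-outs, with adjusted p of 0.174 without the first WT untreated library, and with RLE scaling. In TPM the order of C1qb was turned, with means of 16.4 untreated and 13.2 at 20 weeks, and so was that of Cd68 (40.4 and 29.5) and Bst2 (161 and 131), while C1qa stood at 12.2 and 14.9 and C1qc at 5.9 and 6.08. Ctss reached 355, 376, 309 and 416 CPM, all above the untreated libraries, 1.44 ± 0.14 (adjusted p = 2.13e-06). Cd68, a lysosomal glycoprotein of macrophages, was at 26.8, 20.5, 14.7 and 11.1 CPM untreated and 18.9, 21.5, 25 and 21.3 CPM, 0.67 ± 0.16 (adjusted p = 0.00587), with adjusted p of 0.0591 without the second WT 20-week library. Marco was lower by at least 3.61-fold, from 26 counts in all to 0, with the bound set at 3 counts per library (adjusted p = 0.0308), and its call was lost in 7 of 8 leave-outs and with the compared groups alone.

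Among monocyte genes, Ly6c2 was at 150.4, 203, 141 and 239 CPM, 1.85 ± 0.46 (adjusted p = 0.0211), and 2.45 without the first WT untreated library. It lost its call in 4 leave-outs, with adjusted p up to 0.0921, and with the compared groups alone (0.077). Cd300e, an activating receptor of patrolling monocytes, had 2 counts over the 4 untreated and 238 over the 4 20-week libraries. The counts at 20 weeks were 132, 20, 56 and 30, so the first WT library held most of them, and the pooled ratio of levels was 72.3 with an exact 95% interval of 19.8 to 600.5 that covers counting error only (adjusted p = 0.00424). The remaining 9 monocyte genes were not called. Ccr2 stood at 23.3 to 79.1 CPM untreated and 13.7 to 24 CPM at 20 weeks.

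Among dendritic genes, Tlr9 was at 4.17, 5.56, 3.39 and 4.46 CPM untreated and 12.2, 13, 6.95 and 18.6 CPM at 20 weeks (1.91 ± 0.31 (adjusted p = 0.000296)), with no overlap. Tlr7 stood at 21.9, 26, 17.3 and 21.1 CPM, below every untreated library (-1.12 ± 0.15 (adjusted p = 5.54e-05)). Siglech, at 7.94, 16, 11.6 and 17.4 CPM, was not called (-0.02 ± 0.27 (adjusted p = 0.982)). Its means were lower than untreated, at 13.2 against 17.5 CPM and 6.6 against 14.5 TPM. The scaling matters here, because TMM factors over all 24 libraries were 0.859 to 1.003 at 20 weeks and 1.146 to 1.185 in untreated HSPCs. Xcr1 was at 1.47, 3.56, 4.42 and 2.4 CPM untreated and 5.94, 12, 6.78 and 5.53 CPM at 20 weeks (1.72 ± 0.42 (adjusted p = 0.00664)). Clec9a, at 4.67 to 7.05 CPM, was not called (1.18 ± 0.45 (adjusted p = 0.0691)). Cd209a, the gene of a DC-SIGN homolog, was at 0.289, 1.66, 0.0190 and 0.193 and 1.6, 2.28, 2.74 and 1.93 CPM (3.12 ± 0.84 (adjusted p = 0.0109)). Its change ran from 2.65 to 4.23 over the leave-outs, and without the first mutant untreated library it was not called (adjusted p = 0.0641). Bst2 was at 59.5 to 83.8 CPM (0.78 ± 0.14 (adjusted p = 0.000683)), and Irf8 at 73.2 to 98.2 CPM (0.14 ± 0.14 (adjusted p = 0.518)).

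B lineage transcripts moved with this comparison. The 12 B cell markers summed to 13074 to 23864 CPM untreated and 47999 to 93067 CPM at 20 weeks, and all 6 plasma cell markers rose. Tlr9 and Ctss are also expressed by B cells. The part of these transcripts was not tested. Further macrophage genes rose in 6 of 21 cases and fell in none, led by Apoe (2.00 ± 0.16), Ctsb (0.79 ± 0.11) and Axl (0.66 ± 0.13). Further monocyte genes rose in 4 of 19 cases and fell in 1, with Cd36 (1.39 ± 0.22), Spn (0.52 ± 0.10) and Ms4a4c (1.33 ± 0.37) higher. Further plasmacytoid genes rose in 4 of 15 cases and fell in 3, with Bcl11a at -0.72 ± 0.10, Ly6d at 1.21 ± 0.17 and Lair1 at 0.78 ± 0.12. Further conventional dendritic genes rose in 4 of 18 cases and fell in 1, with Naaa at 1.39 ± 0.22, Ccr7 at 0.86 ± 0.20 and Flt3 at -0.81 ± 0.12. None of the 7 ligands tested was called (2 had an unadjusted p under 0.05), and of 17 interferon genes 2 rose and 6 fell, including Mx1 (-1.87 ± 0.29), Xaf1 (-0.83 ± 0.17) and Ifi44 (-0.96 ± 0.19).

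**Figure D3:**
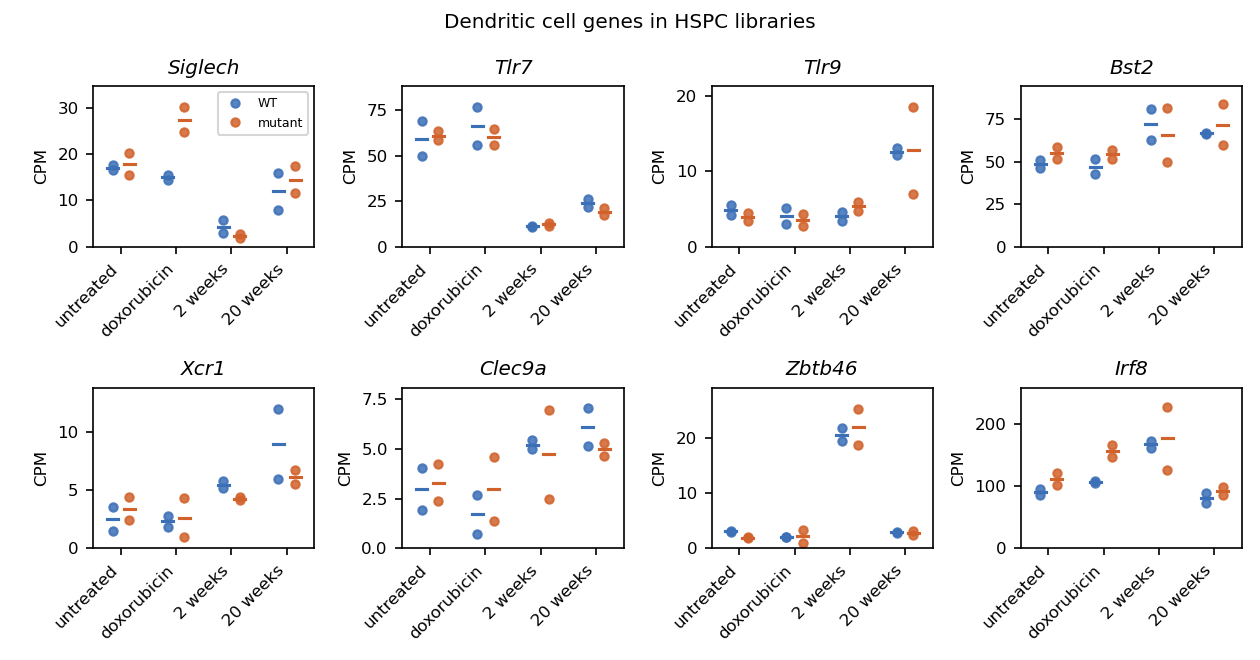
CPM of 8 dendritic and shared members (1 panel each, linear axis from 0) in the 16 HSPC libraries by condition. WT points are blue, mutant points are orange, and a bar marks the mean of each genotype. Siglech and Tlr7 are lowest at 2 weeks, Zbtb46 stands out at 2 weeks (18.7 to 25.3 CPM) and Tlr9 at 20 weeks (6.95 to 18.6 CPM).

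The Srcap mutation was compared with WT within each HSPC condition. No member was called in untreated, doxorubicin, 2-week or 20-week HSPCs, where 0%, 0.0154%, 0.138% and 0.00512% of all genes tested were called, nor in the mean over the 4 conditions, where 0.133% were. With edgeR 10, 5, 1, 2 and 6 members had an unadjusted p under 0.05 in these comparisons. Of all 19522 genes tested, 941, 1912, 1711, 742 and 1929 did. DESeq2 called 2 members lower in untreated mutants (Lyz2 and Cd68) and none in the others. The share of all genes that DESeq2 called is not given here, so its count has no background. The mutant response to doxorubicin, to 2 weeks or to 20 weeks of transplantation differed from the WT response for no member either. In each, 0% of all genes tested were called, and DESeq2 called no member. With edgeR 1, 3 and 4 members had an unadjusted p under 0.05, as did 550, 1432 and 910 of all 19522 genes tested.

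The untreated genotype values rest on the library that stands apart. Lyz2 differed by -3.13 ± 0.96 (adjusted p = 0.826) and F13a1 by -2.15 ± 0.86 (adjusted p = 0.985), and the median over members was -0.63, against 0.02 over all genes tested. Without the second WT untreated library, which leaves the unusual one alone in its group, Lyz2, F13a1, Csf1r and Ccr2 were called lower in mutants. Without the unusual library no member was called. The share of all genes that those fits called is not given here. Cd68, another of the macrophage genes, was higher in both WT libraries. They were at 26.8 and 20.5 CPM and mutants at 14.7 and 11.1 CPM (-0.90 ± 0.23 (adjusted p = 0.622)). The difference in Cd68 did not pass the test.

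Over the 4 conditions together, the mean genotype difference was -0.50 ± 0.16 (adjusted p = 0.28) for Vcam1, -0.72 ± 0.24 (adjusted p = 0.286) for Adgre1 and -0.33 ± 0.12 (adjusted p = 0.305) for Cd68. Each was below 0 and none was called. In doxorubicin HSPCs, Siglech was at 15.6 and 14.4 CPM (WT) against 30.1 and 24.8 CPM (mutant) (0.81 ± 0.38 (adjusted p = 0.503)). Irf8 was at 108 and 105 and 167 and 147 CPM (0.50 ± 0.20 (adjusted p = 0.422)), and neither gene was called. At 2 and 20 weeks the member medians were -0.01 and -0.30. Among the other lists of these cell types, Axl, a receptor by which macrophages bind dying cells, was the only gene called in the mean over conditions, lower in mutants (log2 difference -0.54 ± 0.10), where 1 of 21 further macrophage genes was called.

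In B cells of the marrow 2 weeks after transplantation, 6 members were lower in mutants than in WT, where 0.583% of all genes tested were called lower. They were the monocyte genes Ly6c2, Ccr2 and Cd300e and the macrophage genes Cd68, Mpeg1 and Lyve1. None was called higher. Ccr2 was at 53.5 and 53.3 CPM (WT) against 33.9 and 25.8 CPM (mutant), -0.84 ± 0.15 (adjusted p = 0.0238). Ly6c2 stood at 105 and 135 and 68.5 and 46.4 CPM, -1.06 ± 0.17 (adjusted p = 0.0265). Mpeg1 was at 303 and 340.03 and 183 and 184 CPM, -0.81 ± 0.14 (adjusted p = 0.0226). In each of these 3 genes both mutant libraries lay below both WT libraries, and the mutant pair was tightest in Mpeg1.

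The other called members were low or close. Cd68 was at 26 and 25.6 and 18.7 and 16 CPM, -0.57 ± 0.12 (adjusted p = 0.0439). Cd300e had 66 and 44 counts in WT and 5 and 5 in mutant libraries, -3.42 ± 0.52 (adjusted p = 0.0131). Lyve1, a hyaluronan receptor of lymphatic vessels and of some tissue macrophages, had 44 and 65 counts in WT and 8 and 0 in mutants, -3.72 ± 0.73 (adjusted p = 0.0405), a pooled ratio of 13.6 with an exact 95% interval of 6.64 to 32.2 for counting error. Cx3cr1 (10.7 and 12.1 against 6.83 and 4.15 CPM, -1.06 ± 0.21 (adjusted p = 0.0763)) and Siglech (91.5 and 99.7 against 47.3 and 63 CPM, -0.79 ± 0.29 (adjusted p = 0.365)) showed the same order without passing the test. Over all members, 24 of 33 were lower in both mutant than in both WT libraries, where 20.8% of all genes tested were, and Tlr9, Timd4 and Batf3 were higher in both, where 20.5% were. The median difference was -0.77 over the members and -0.01 over all genes tested. With edgeR 17 members had an unadjusted p under 0.05, as did 1928 of all 17484 genes tested.

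The calls depended on single libraries and on the fit. Fitted on the 4 B cell libraries alone, edgeR called none, while DESeq2 on the 8 B and T-labelled libraries called 8. The share of all genes that those fits called is not given here. Over the 4 leave-outs the log2 differences were -1.35 to -0.80 for Ly6c2, -1.04 to -0.65 for Ccr2 and -0.88 to -0.72 for Mpeg1. They were -0.67 to -0.46 for Cd68, -3.68 to -3.07 for Cd300e and -8.40 to -2.77 for Lyve1. Each call but that of Cd300e was lost in at least 1 leave-out. The first mutant library held all mutant counts of Lyve1, so without it that group is at 0.

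Some marker lists of other cell types had the same order in the B cell libraries. Of 11 lists, that of B cells counted among them, 6 had lower sums in both mutant than in both WT libraries. Eosinophil markers summed to 129 and 164 CPM (WT) against 80.8 and 96.3 CPM (mutant). Mast cell and basophil markers summed to 167 and 187 and 137 and 88.6 CPM, and T cell markers to 74.3 and 81.6 and 54.4 and 55.4 CPM. The natural killer cell, platelet and stem cell lists were the others. The stroma and endothelium list had the reverse order, at 272 to 274 CPM (WT) against 315 to 347 CPM (mutant), and so did the B cell list. The 19 neutrophil markers summed to 9404 and 14005 CPM (WT) against 9482 and 4015 CPM (mutant), so the groups overlapped, with a median difference of -0.82 and none called (1 had an unadjusted p under 0.05). The 11 monocyte members summed to 1425 and 1975 and 1252 and 699.9 CPM, and Lyz2 alone was at 1104 and 1607 and 1012 and 543 CPM. Erythroid markers summed to 18655 and 10402 and 13104 and 7083 CPM and the 12 B cell markers to 17218 and 17858 and 18568 and 21508 CPM. The part of other cells in the 6 calls was not tested. Of further genes, Csf2rb, the shared chain of the GM-CSF receptor (-0.64 ± 0.10, 1 of 19 monocyte genes), Tyrobp, the adaptor of many myeloid receptors (-0.82 ± 0.15, 1 of 21 macrophage genes), Runx2 (-0.76 ± 0.15) and Irf7 (-0.67 ± 0.13, together 2 of 15 plasmacytoid genes), and Isg15 (-0.84 ± 0.16, with Irf7 2 of 17 interferon genes) were lower in mutants. The genotype difference in B cells was not shown to differ from that in 2-week HSPCs for any member, in a test chosen after the data were seen. No member was called, and 5 had an unadjusted p under 0.05, as did 1371 of all 19018 genes tested.

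**Figure D4:**
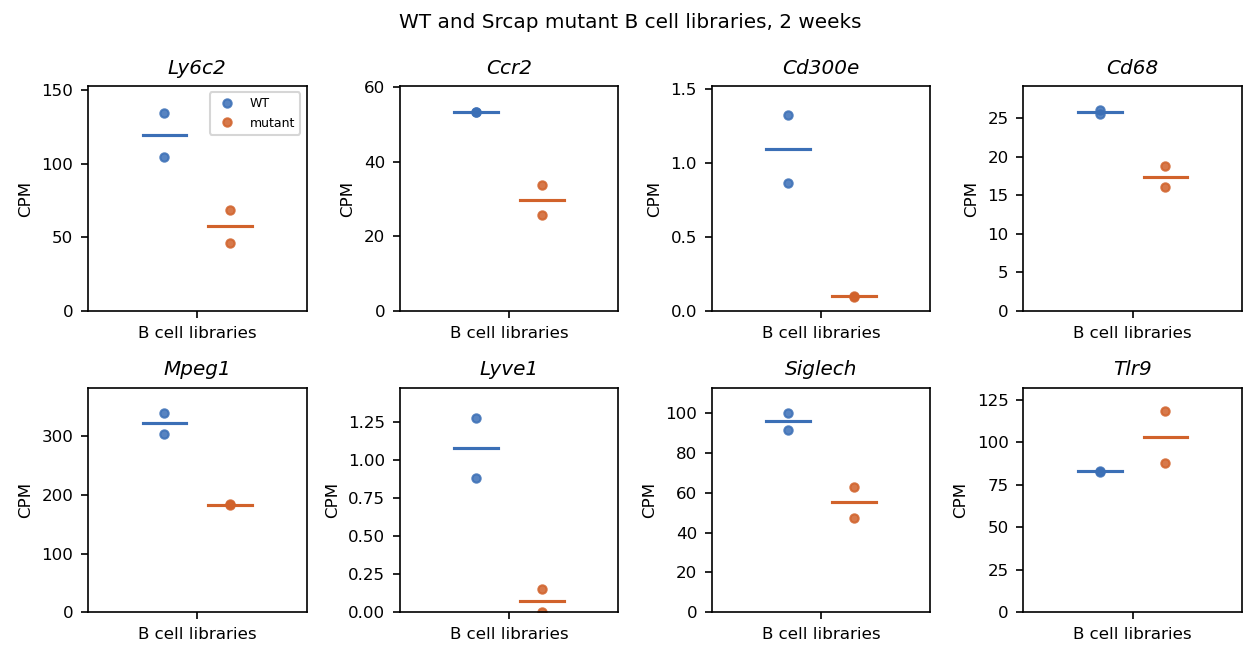
CPM of 8 members (1 panel each, linear axis from 0) in the 4 B cell libraries, WT in blue and mutant in orange, with a bar at each group's mean. Both mutant libraries lie below both WT ones in each panel except Tlr9, where WT libraries are at 83.1 and 82.7 CPM and mutants at 87.7 and 119 CPM.

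Against the HSPC libraries of the same 2 weeks, the B cell libraries held more Siglech and Tlr9, 2 of the 4 plasmacytoid genes. Of the 12 macrophage genes 5 were lower in B cells and 3 higher. Of the 33 members 10 were higher in B cells, where 28.3% of all genes tested were, and 11 were lower, where 25.5% were. Siglech was at 2.95, 5.79, 2.75 and 1.86 CPM in HSPCs and 91.5, 99.7, 47.3 and 63 CPM in B cells, 4.62 ± 0.30 (adjusted p = 2.07e-07). Tlr9, which B cells use to sense DNA, was at 3.43, 4.59, 4.7 and 5.99 and 83.1, 82.7, 87.7 and 119 CPM, 4.45 ± 0.17 (adjusted p = 1.04e-10). Irf8, which B cells also express, was at 173, 162, 127 and 228 and 420.4, 415, 329 and 412 CPM, 1.32 ± 0.14 (adjusted p = 4.5e-06). No HSPC library reached a B cell library in these 3 genes. Of 15 further plasmacytoid genes 10 were higher and 1 lower, led by Spib (6.83 ± 0.21), a transcription factor of both B and plasmacytoid cells, Ly6d (5.13 ± 0.21), which both carry too, and Unc93b1 (2.52 ± 0.16), the chaperone of endosomal Toll-like receptors. Bst2 and Tlr7 were not called (-0.17 and 0.27).

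The C1q genes were lower in B cells than in HSPCs, with log2 changes of -1.04 ± 0.26, -0.87 ± 0.19 and -0.99 ± 0.26 for C1qa, C1qb and C1qc. Vcam1 (-1.14 ± 0.26 (adjusted p = 0.00412)) and Cd163 (-2.27 ± 0.34 (adjusted p = 5.43e-05)) were lower as well, and so were Csf1r, Cx3cr1, Ms4a6c and F13a1 among monocyte genes, F13a1 by the most (-1.54 ± 0.17 (adjusted p = 1.44e-05)). Csf1r lost its call in 5 leave-outs, with adjusted p up to 0.0964, and with all 24 libraries in 1 fit the calls of Csf1r, Cx3cr1 (adjusted p = 0.139), Mpeg1 (0.0681) and Lyve1 (0.0691) were lost. Higher in the B cell libraries were Lyz2 (1.82 ± 0.25 (adjusted p = 0.000213)), Klf4, a zinc-finger factor (2.85 ± 0.48 (adjusted p = 0.00167)), Ctss (1.82 ± 0.13 (adjusted p = 4.05e-08)), Mpeg1 (0.34 ± 0.10 (adjusted p = 0.0143)), Cd300e, Cd209a and Lyve1. Mean Mpeg1 was 252 ± 81.3 CPM in B cells and 211 ± 28.5 CPM in HSPCs (SD). In CPM, both WT B cell libraries lay above every 2-week HSPC library for Mpeg1, and both mutant ones lay below every one. The Klf4 change was 3.75 without the second mutant HSPC library and that of Cd209a was 3.87 without the first, against 2.05 with it. Lyve1 lost its call without the first mutant B library (adjusted p = 0.893), and Mpeg1 without the second WT one (adjusted p = 0.0517). Xcr1 had 761 counts in HSPCs and 37 in B cells, a ratio of 26.6 with an exact 95% interval of 19.1 to 38.1, and Zbtb46 was lower too, with a change of -2.65 ± 0.25 (adjusted p = 6.03e-07). Clec9a was shared, at 2.49 to 6.98 CPM in HSPCs and 4.01 to 7.72 CPM in B cells. Neutrophil markers summed to 4015 to 14005 CPM in the B cell libraries and 6769 to 11250 CPM in the 2-week HSPCs. Erythroid markers summed to 7083 to 18655 and 477 to 1350 CPM. The part of these other cells in the differences between B cell and HSPC libraries was not tested.

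The T-labelled libraries held the highest monocyte levels of the series. Of the 33 members 23 were higher there than in 2-week HSPCs, where 32.6% of all genes tested were, and 4 were lower, where 29.3% were. All 11 monocyte genes were higher, and together they summed to 19443 to 22086 CPM, against 635 to 1085 CPM in the HSPCs. Lyz2 was at 16564, 17043, 17519 and 18704 CPM, 6.62 ± 0.31 (adjusted p = 5.16e-08). Ccr2 stood at 355, 427, 373 and 456 CPM, 4.02 ± 0.15 (adjusted p = 3.98e-11). Csf1r was at 378, 357, 384 and 448 CPM, 3.70 ± 0.32 (adjusted p = 1.68e-05). Each was far above every HSPC and B cell library, and the 4 libraries lay close to each other. The smallest monocyte change was that of Ms4a6c (2.87 ± 0.26), and Cd14, the co-receptor for lipopolysaccharide, at 7.14, 5.73, 8.42 and 6.52 CPM, was under 1 CPM in each 2-week HSPC library (4.26 ± 0.52 (adjusted p = 4.53e-06)). Cd300e had 2320 counts against 6 and Lyve1 1265 against 8, ratios of 298 (exact 95% interval 136.8 to 814) and 122 (61.7 to 283).

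Macrophage genes split in these libraries. Adgre1 (68, 68, 62.9 and 87.7 CPM, 4.25 ± 0.23 (adjusted p = 8.86e-09)), Cd68 (3.40 ± 0.12), Ctss (3.51 ± 0.14) and Mpeg1 (3.44 ± 0.12) were higher, and Cd163 lower (-1.02 ± 0.33 (adjusted p = 0.0143); lost in 2 leave-outs with adjusted p up to 0.0645). The C1q genes did not pass the test, with changes of 0.30, 0.34 and 0.03 for C1qa, C1qb and C1qc, and their mean CPM was lower than in HSPCs, with C1qa at 14.5, 8.37, 6.64 and 10.1 CPM. The scaling matters here, because TMM factors were 0.614 to 0.676 in T-labelled libraries, 1.12 to 1.20 in 2-week HSPCs and 1.05 to 1.06 in B cells. Vcam1 (0.75 ± 0.26 (adjusted p = 0.0276)) and Irf8 (0.53 ± 0.14 (adjusted p = 0.00553)) were called higher in the scaled values, but their mean CPM was lower than in HSPCs, 38 ± 8.1 against 40.2 ± 8.25 and 139 ± 19.4 against 172 ± 41.9 (SD, n = 4). Vcam1 also lost its call in 6 of 8 leave-outs, with adjusted p up to 0.133.

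The dendritic genes of these libraries were mixed. Tlr9 (3.50 ± 0.17), Tlr7 (2.29 ± 0.15), Cd209a (5.81 ± 0.63) and Batf3 (2.60 ± 0.81) were higher than in 2-week HSPCs, and Siglech, at 3.63, 7.54, 2.72 and 3.12 CPM, was called higher with a change of 1.16 ± 0.28 (adjusted p = 0.00377). The Siglech values overlapped those of the HSPCs (1.86 to 5.79 CPM), and its mean TPM was lower here (2.84 against 3.21). Cd209a changed by 7.62 without the first mutant HSPC library, and Batf3 lost its call without the first WT HSPC library (adjusted p = 0.0517). Bst2 (-0.65 ± 0.16 (adjusted p = 0.0034)), Zbtb46 (-2.61 ± 0.25 (adjusted p = 4.21e-07)) and Xcr1 were lower, Xcr1 with 761 counts in HSPCs and 21 here, a ratio of 47.0 (30.5 to 76.3). Further monocyte genes were higher in 18 of 19 cases and lower in 1, led by Sirpa (4.26 ± 0.13), Nr4a1 (4.75 ± 0.19) and Csf2rb (3.41 ± 0.16), and further macrophage genes in 12 and 1 of 21, led by Fcer1g (4.50 ± 0.16), Tyrobp (4.96 ± 0.18) and Ctsb (1.93 ± 0.11). Neutrophil markers made 15.1 to 17.1% of all counts in these libraries. Lyz2, Fcer1g and Tyrobp are neutrophil genes too, while Ccr2, Csf1r and F13a1 are used as monocyte genes. The part of neutrophils in these values was not tested.

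Against B cells of the same time, 24 members were higher in T-labelled libraries, where 25.9% of all genes tested were, and 4 were lower, where 27% were. All 11 monocyte genes were among the higher ones, and so was C1qc, whose mean TPM was lower (8.96 against 10.3). Cd14 differed by 5.48, Lyve1 by 7.43 and Batf3 by 6.06 where a single B library was left out, against 4.76, 5.07 and 3.54 with all (the first mutant library for Cd14 and Lyve1, the first WT one for Batf3). Those lower were Siglech (-3.46 ± 0.28 (adjusted p = 1.12e-06)), Tlr9 (-0.94 ± 0.15 (adjusted p = 6.99e-05)), Irf8 (-0.79 ± 0.14 (adjusted p = 0.00034)) and Bst2 (-0.48 ± 0.16 (adjusted p = 0.0234), lost in 4 leave-outs with adjusted p up to 0.0986). The median of all genes tested was -0.156 here and 0 with DESeq2's scaling. Between genotypes in T-labelled libraries no member was called, where 0.0114% of all genes tested were, and DESeq2 called none. With edgeR the unadjusted p was under 0.05 for 1 member and for 1000 of all 17484 genes tested. Ccr2, at 355 and 427 CPM (WT) against 373 and 456 CPM (mutant) (0.15 ± 0.14 (adjusted p = 0.915)), overlapped between genotypes. The difference between the B cell and T-labelled genotype effects was called for no member. Its unadjusted p was under 0.05 for 9 members and for 1081 of all 19018 genes tested.

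**Figure D5:**
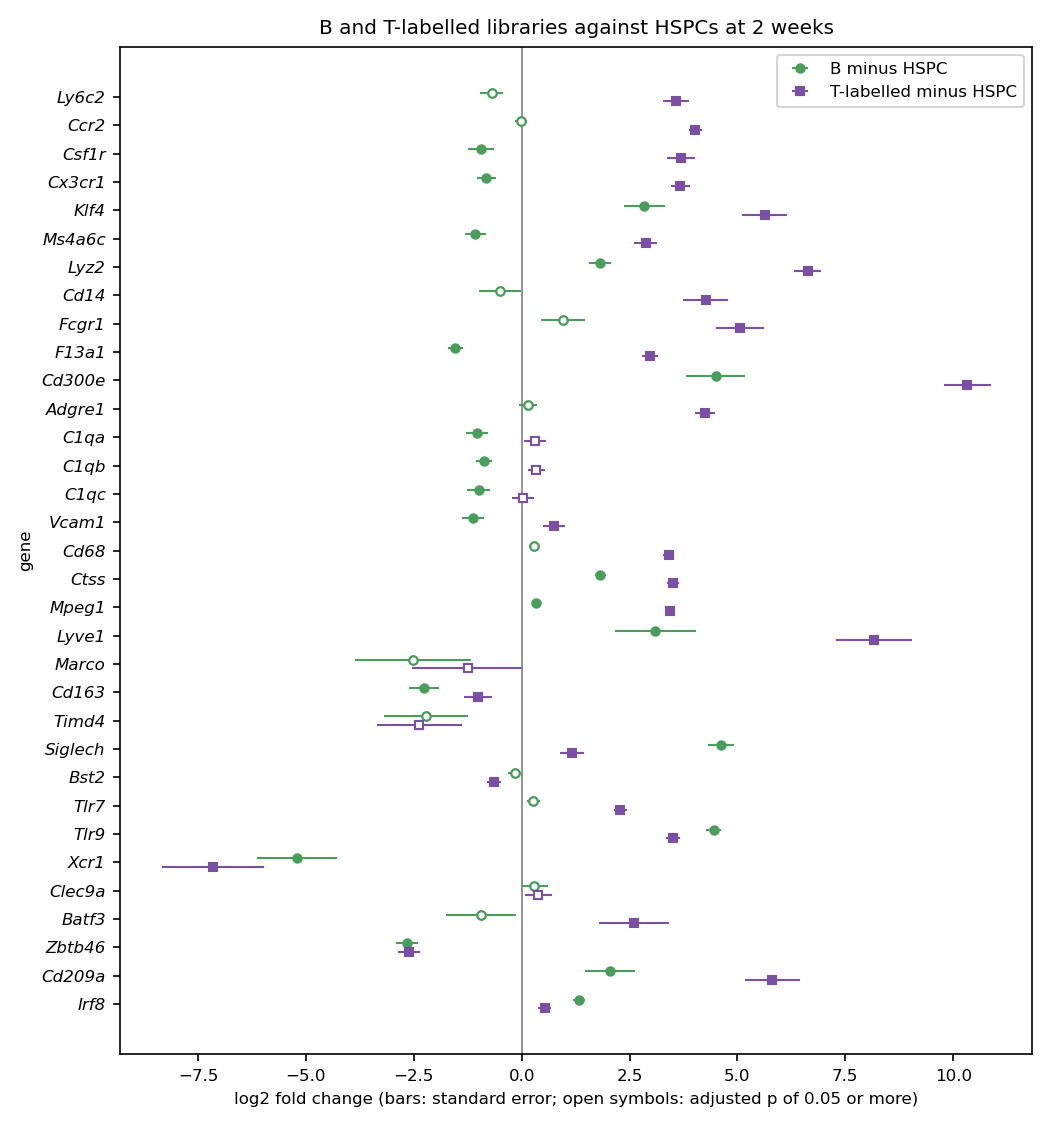
Log2 change ± SE of the 33 members from 2-week HSPCs to B cells and to T-labelled libraries (4 libraries each), with open symbols for adjusted p of 0.05 or more. All 11 monocyte genes lie to the right of 0 in the T-labelled comparison, and Siglech lies far to the right in B cells (4.62 ± 0.30).

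Members not described above stayed at the edge of detection or without calls between conditions of HSPCs. Timd4, a phosphatidylserine receptor of resident macrophages, was at 0 to 1.43 CPM over all 24 libraries and was called by edgeR in none of the comparisons as fitted. DESeq2 called it lower in B cells and in T-labelled libraries than in 2-week HSPCs, and edgeR did so in the latter with RLE scaling, without immunoglobulin genes and in 2 leave-outs. Batf3 was at 0 to 3.67 CPM in HSPCs, its highest value in the first WT untreated library, and Klf4 at 0.864 to 5.92 CPM. Marco was at 0 to 0.384 CPM in B cells and T-labelled libraries and Lyve1 at 0 to 1.94 CPM in HSPCs, its highest value also in the first WT untreated library.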

How the data were processed

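Messenger RNA of sorted marrow cells was sequenced as stranded libraries, per the labels' protocols. The deposited files hold raw counts per gene made with featureCounts v2.0.1 on read pairs, reverse stranded, with the GENCODE M28 annotation (GRCm39), per the file headers. FastQC, STAR and Subread appear in the submitters' processing notes, which list mm39 as well as mm10. How reads were aligned is not stated there. Replicates were not pooled.

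CPM was computed by library total and TPM from the exon lengths in the files. Pearson's r between members was computed on log2(CPM + 1). In R 4.3.3, edgeR 4.0.16 (filterByExpr with a minimum count of 10 and a total of 15, TMM scaling, robust quasi-likelihood, Benjamini-Hochberg over all genes tested) was fitted with 1 mean per group to the 16 HSPC libraries (19522 genes), the 8 B and T-labelled libraries (17484 genes) and the 12 libraries of 2 weeks (19018 genes), and changes were averaged over genotypes where genotypes are not compared. DESeq2 1.42.0, RLE scaling, a fit without the count filter, the replicate number as a blocking term, the compared groups alone or all 24 libraries, removal of immunoglobulin genes, and leaving out each library were the alternatives. Scripts were tested on simulated data. Counts of at most 3 per library were taken as the floor, and exact intervals cover counting error only.

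The members, gene lists and tests were chosen with earlier results of these data known, and the lists are not independent evidence. All 33 members were accounted for. Of each other list the text gives the counts called in each direction and up to 3 called genes with the smallest adjusted p, and of other cell types' markers the sums and up to 2 genes, with the neutrophil genes that rose at 2 weeks named in full. Promoter sequences are RefSeq's for GRCm38.p6 and were matched by symbol, whereas gene positions are from the files (GRCm39). Replicate numbers name no pairs in the labels and were not used to pair libraries. No sample was dropped.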

Additional observations from a re-analysis of the deposited data

How the results depend on the processing

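With RLE scaling or without immunoglobulin genes no count of called members moved beyond 1.5 times. Without the count filter, members called became 6 for the genotype in untreated HSPCs, 1 in doxorubicin HSPCs, 7 in the mean over conditions, 9 for doxorubicin against untreated, 4, 5 and 3 for the genotype difference of the doxorubicin, 2-week and 20-week responses, 12 for the genotype in B cells and 1 in T-labelled libraries. DESeq2 gave 2 for the genotype in untreated HSPCs and 4 for doxorubicin against untreated. The compared groups alone gave 1 for the genotype in doxorubicin HSPCs and 0 in B cells. The cause of these shifts was not tested. Over the leave-outs, the called members were 0 to 4 for the genotype in untreated HSPCs, 0 to 1 in the mean over conditions, 0 to 3 for doxorubicin against untreated, 0 to 2 for each of the 3 genotype differences of a response, 1 to 12 for the genotype in B cells, 13 to 20 at 2 weeks and 9 to 16 at 20 weeks. A library left alone in its group is assumed to vary like the others. The share of all genes called was not set beside the member counts of any alternative, so these counts have no background. The counts for 2 and 20 weeks and for the cell labels stayed within 1.5 times of the reported ones under every alternative run. Of 1544 alternative values of 112 called changes, 1454 kept their call, 90 lost it (71 of them in leave-outs) and 0 reversed direction. With TMM library sizes over all 24 libraries (factors 0.614 to 1.20), 153 of 396 group means of CPM moved by more than the SD. 

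Same-numbered WT and mutant libraries deviated from their group means with correlations of -0.129 (2-week HSPCs) to 0.14 (T-labelled). Whether same-numbered libraries were handled together cannot be decided from these values. With the replicate block 0 members were called in each HSPC genotype comparison, 1 after doxorubicin, 16 at 2 weeks, 12 at 20 weeks and 9 in the B cell genotype comparison (6 without it, adding Bst2, Siglech and Vcam1). Calls lost with it were those of Fcgr1 at 2 weeks, C1qb and Marco at 20 weeks and Csf1r between B cells and HSPCs. With the mutant numbers crossed, an alternative chosen after seeing the data, 0 were called in doxorubicin and in 2-week HSPCs. Depth limits Marco, Cd300e, Lyve1, Batf3 and Timd4, which had few counts in HSPCs, and 2 libraries per group limit every genotype comparison.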
